A study of Mus musculus with 15 samples.

Results

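The genes described are 9 marker genes of astrocytes: Gfap, S100b, Aqp4, Kcnj10, Gja1, Gjb6, Sox9, Fgfr3 and Aldoc. They were taken by gene symbol from the table of normalized read counts that covers the whole series, and all 9 were found among its 26595 genes. RNA had been sequenced from cerebral cortex and striatum of male C57Bl/6 mice aged 5 months. KO mice carried the genotype SLC1a4 -/-, that is, they lacked Slc1a4, which encodes the transporter ASCT1, and they were compared with wild type (WT) mice. The 15 libraries form 4 groups: KO striatum (n = 3, replicates 2 to 4), WT striatum (n = 4, replicates 5 to 8), KO cortex (n = 4, replicates 1 to 4) and WT cortex (n = 4, replicates 5 to 8). The labels do not say how the knockout was made, nor whether replicates came from separate animals, so every p-value measures the spread between these libraries, which may be technical. The tissue was not sorted, and a lower value of a marker can come from fewer astrocytes or from less of its RNA in each astrocyte, which cannot be told apart.

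Astrocytes are glial cells that take up glutamate and potassium around synapses, cover blood vessels with their end feet and form a network through gap junctions. Gfap encodes the intermediate filament that astrocytes make in larger amounts when they become reactive after injury or in disease, and S100b encodes a calcium-binding protein. Astrocytes of different brain regions are known to differ in their gene expression, and ASCT1 is a serine and alanine transporter that astrocytes express, among other cells.

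Libraries held 23260155 to 24006391 counted reads in KO striatum, 22990233 to 25697792 in WT striatum, 28114119 to 30276815 in KO cortex and 26791109 to 29342263 in WT cortex. The knocked-out gene, Slc1a4, averaged 271 ± 99.3 normalized counts in KO striatum, 1533 ± 217 in WT striatum, 265 ± 28.7 in KO cortex and 1624 ± 127 in WT cortex (SD). Several libraries stood apart. KO striatum replicate 4 and WT striatum replicate 5 were rich in transcripts of the choroid plexus, with summed values of 162437 and 236330 over 20 marker genes, and the other 13 libraries reached at most 21267, in WT striatum replicate 8. KO striatum replicate 4 also had the highest sum over 15 genes of thalamus, septum and pallidum, 58266. The cortex and striatum libraries numbered KO 2 had the highest Gfap values of their tissues.

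All 9 markers are protein-coding genes, and all passed the filter on low values, which kept the 17030 genes that reached a normalized count of 10 in 3 or more libraries. The fewest reads behind any marker value were 563, for Sox9. Positions are given on GRCm38 from GENCODE M21. Gfap (ENSMUSG00000020932) lies on chromosome 11, positions 102887336 to 102900912, on the minus strand, and S100b (ENSMUSG00000033208) on chromosome 10, positions 76253853 to 76261159, on the plus strand. Gja1 (ENSMUSG00000050953) lies on chromosome 10, positions 56377330 to 56402513, plus strand, and Gjb6 (ENSMUSG00000040055) on chromosome 14, positions 57123303 to 57133611, minus strand. Kcnj10 (ENSMUSG00000044708) lies on chromosome 1, positions 172341210 to 172374085, plus strand. Sox9 (ENSMUSG00000000567) and Aldoc (ENSMUSG00000017390) lie on chromosome 11 at positions 112782224 to 112787760 and 78322968 to 78327781, both on the plus strand, and Fgfr3 (ENSMUSG00000054252) on chromosome 5, positions 33721674 to 33737068, plus strand. The annotation puts 998 exon bases of Fgfr3 under an uncharacterised transcript of the opposite strand, G630022F23Rik. Whether the counting used strand is not given in the sources used here, so reads of that stretch are uncertain.

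RefSeq promoter windows of 300 bases (250 before and 50 after the start of transcription, GRCm38.p6) were matched for 7 of the 9 markers. Gfap, S100b and Gja1 are shown because the results turn most on them: Gfap had the widest spread between libraries, S100b differed between the tissues in both genotypes, and Gja1 differed in WT. Each line runs 5′ to 3′ along the gene's strand, and capitals mark 2 searched motifs, TTCNNNGAA (the palindrome bound by STAT factors) and TTGGCA (the core bound by nuclear factor I), searched on both strands.
Gfap, chr11:102897151-102897450, minus strand: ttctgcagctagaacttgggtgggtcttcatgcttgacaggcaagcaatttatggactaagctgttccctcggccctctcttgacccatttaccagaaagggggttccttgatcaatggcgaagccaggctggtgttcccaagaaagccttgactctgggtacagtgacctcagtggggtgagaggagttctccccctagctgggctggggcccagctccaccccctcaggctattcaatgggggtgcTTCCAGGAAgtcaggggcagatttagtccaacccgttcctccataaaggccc
S100b, chr10:76253586-76253885, plus strand: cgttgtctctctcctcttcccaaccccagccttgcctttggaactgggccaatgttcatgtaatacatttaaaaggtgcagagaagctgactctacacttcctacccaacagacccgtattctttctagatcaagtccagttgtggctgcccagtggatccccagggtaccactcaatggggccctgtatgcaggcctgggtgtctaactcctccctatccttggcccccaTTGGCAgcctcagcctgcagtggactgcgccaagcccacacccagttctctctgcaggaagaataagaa
Gja1, chr10:56377050-56377349, plus strand: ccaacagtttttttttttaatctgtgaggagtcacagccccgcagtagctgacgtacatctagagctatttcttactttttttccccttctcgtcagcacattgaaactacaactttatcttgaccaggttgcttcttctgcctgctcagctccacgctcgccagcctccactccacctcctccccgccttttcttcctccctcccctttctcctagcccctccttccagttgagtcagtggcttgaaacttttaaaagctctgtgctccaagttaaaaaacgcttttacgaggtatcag
The window of Gfap holds TTCNNNGAA once, as TTCCAGGAA, and the window of S100b holds TTGGCA once. The window of Gja1 holds neither. Among 32817 promoter windows of the same length 8.29% held TTCNNNGAA and 14.1% held TTGGCA, so both matches are descriptions of these letters and mark no known binding site here.

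Levels were compared between the markers per kilobase of the longest coding transcript. Aldoc, which encodes the brain form of the glycolytic enzyme aldolase, was highest in every group, with 6476 ± 1110 normalized counts per kb in KO striatum, 7078 ± 765 in WT striatum, 6747 ± 442 in KO cortex and 7289 ± 636 in WT cortex (SD). Sox9, a transcription factor that astrocytes keep from their precursors, was lowest in every group, with 262 ± 37.5, 260 ± 48.7, 209 ± 47.0 and 206 ± 54.4 per kb in the same order of groups. The libraries of Aldoc and of Sox9 did not overlap those of the next marker in any group. In place 2 stood Gfap in both KO groups (2637 ± 1613 in striatum, 2276 ± 1948 in cortex), with ranges that overlapped those of S100b, and S100b in both WT groups (2700 ± 425 in striatum, 1761 ± 119 in cortex). Gja1, Kcnj10 and, in WT, Gfap followed, and Aqp4, Fgfr3 and Gjb6 lay close together at 672 to 1026 per kb. In both KO groups each marker in places 2 to 7 overlapped the next. In WT striatum S100b, Gja1 and Kcnj10 did not overlap, in that order, and in WT cortex the first gap below Aldoc lay between Kcnj10 and Gjb6. With the length of all annotated exons in place of the longest coding transcript, S100b held place 2 in all 4 groups and Gfap stood in place 4 in KO striatum and place 3 in KO cortex. Gja1 then moved to place 6 in both striatum groups and to place 8 in both cortex groups. Its annotated exons span 10257 bases, against 3182 in that transcript.

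**Figure D1:**
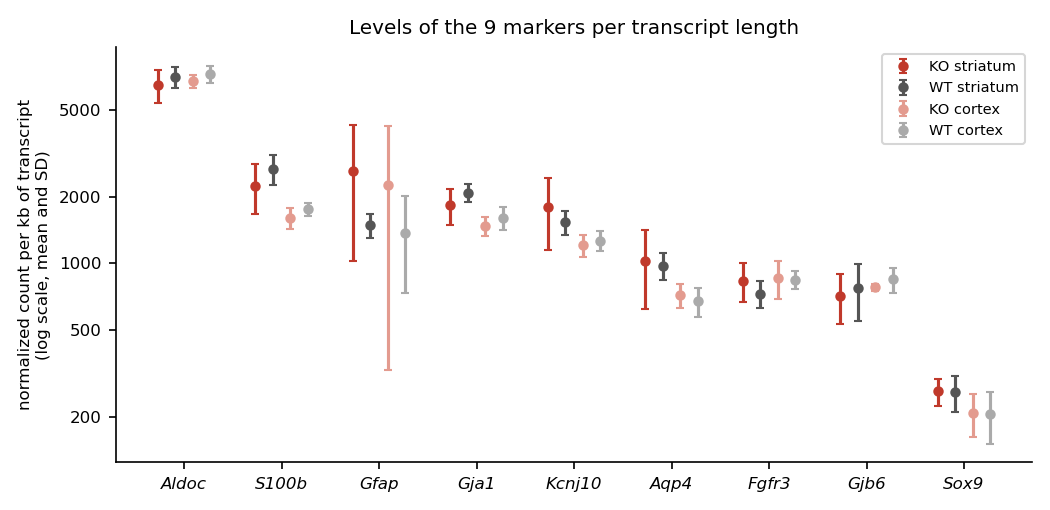
Levels of the 9 markers as normalized counts per kilobase of the longest coding transcript (log axis), as mean and SD of the libraries of KO striatum (n = 3), WT striatum, KO cortex and WT cortex (n = 4 each). Aldoc lies above and Sox9 below the other markers in every group, and Gfap has the widest bars in both KO groups.

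The comparison of KO with WT asks whether loss of ASCT1 changes the level of astrocyte transcripts. In striatum no marker passed the test: limma called 0 of 9 at an adjusted p below 0.05, 0 of 9 had an unadjusted p below 0.05, and edgeR and DESeq2 on the recovered reads each called 0. Over all genes tested 0.0763% were called in this comparison, and a count of 0 among 9 genes does not set the markers apart from that share. Without KO striatum replicate 4 limma called 517 of all genes tested in striatum (3.05%) and still 0 of the 9 markers. The smallest adjusted p belonged to S100b, which had 3265, 2529 and 4245 normalized counts in KO striatum replicates 2 to 4 and 3892, 3561, 3645 and 4929 in WT striatum replicates 5 to 8. The 2 groups overlapped, and the difference was -0.28 on the log2 scale (SE 0.15, limma adjusted p = 0.387). It was -0.47 without KO striatum replicate 4, -0.094 without KO striatum replicate 3 and -0.18 without WT striatum replicate 8, so single libraries set its size. Gja1, the gap junction protein connexin 43, had 4903, 5603 and 7058 in KO striatum and 5766, 7072, 6783 and 7127 in WT striatum, which also overlap (log2 difference -0.20, SE 0.12, limma adjusted p = 0.450). Its difference was -0.35 without KO striatum replicate 4 and -0.084 without KO striatum replicate 2. The median difference of the 9 markers was 0.01 on the log2 scale, and that of all genes tested was 0.01. No marker had groups without overlap, which 8.07% of all genes tested had.

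The 95% intervals show what these libraries could not tell apart. For Aldoc the interval of the KO minus WT difference in striatum ran between -0.37 and 0.10 on the log2 scale. For Kcnj10, the potassium channel Kir4.1 of astrocyte membranes, it ran between -0.20 and 0.55. For Gfap it ran between -0.49 and 1.69, the widest of the 9. Aqp4 (ENSMUSG00000024411, chromosome 18, positions 15389496 to 15410982, minus strand), the water channel of end feet, had 4535, 3557 and 7457 normalized counts in KO striatum and 3915, 5432, 5107 and 5278 in WT striatum, so KO striatum held both its lowest and its highest library. The difference was 0.01 (interval -0.41 to 0.44), and it was -0.28 without KO striatum replicate 4, 0.25 without KO striatum replicate 3 and -0.095 without WT striatum replicate 5. The Kcnj10 difference was 0.18, and it was -0.10 without KO striatum replicate 4. Gjb6 (connexin 30), Sox9 and the growth factor receptor gene Fgfr3 differed by -0.10, 0.02 and 0.18.

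In cortex limma again called 0 of 9 markers, with 0 of 9 at an unadjusted p below 0.05 and 0 called by edgeR and by DESeq2, where 0.00587% of all genes tested were called. The adjusted p was 1.0 for every marker, and no marker had groups without overlap, which 4.02% of all genes had. Gja1 had 4906, 4101, 4655 and 5226 normalized counts in KO cortex replicates 1 to 4 and 4675, 5083, 5998 and 4728 in WT cortex replicates 5 to 8. S100b had 2436, 2332, 2084 and 2705 in KO cortex and 2639.6, 2359, 2689 and 2763 in WT cortex. Both genes overlapped between the genotypes, with log2 differences of -0.12 (SE 0.12) and -0.13 (SE 0.14). Aldoc, the most precisely measured of the 9, differed by -0.11 (interval -0.33 to 0.11), and the intervals of the 8 markers other than Gfap lay between -0.48 (Gjb6) and 0.49 (Aqp4).

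The difference between the 2 knockout effects, striatum minus cortex, was tested in the same fit. It passed for 0 of 9 markers with limma (0 at an unadjusted p below 0.05, and 0 with edgeR and DESeq2), against 0.00587% of all genes tested called and 4.9% with an unadjusted p below 0.05. It was largest for Kcnj10, 0.25 on the log2 scale (SE 0.24, limma adjusted p = 0.973), and the interval ran between -0.26 and 0.75. Without KO striatum replicate 4 the Kcnj10 value was -0.033, and without both libraries rich in choroid plexus transcripts it was -0.13, so its direction rests on KO striatum replicate 4. In both tissues the KO minus WT difference had the same sign for 8 of 9 markers, Kcnj10 being the exception, where 61.5% of all genes tested had the same sign. The count of 8 rests partly on values near 0, such as 0.02 in striatum and 0.04 in cortex for Sox9.

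**Figure D2:**
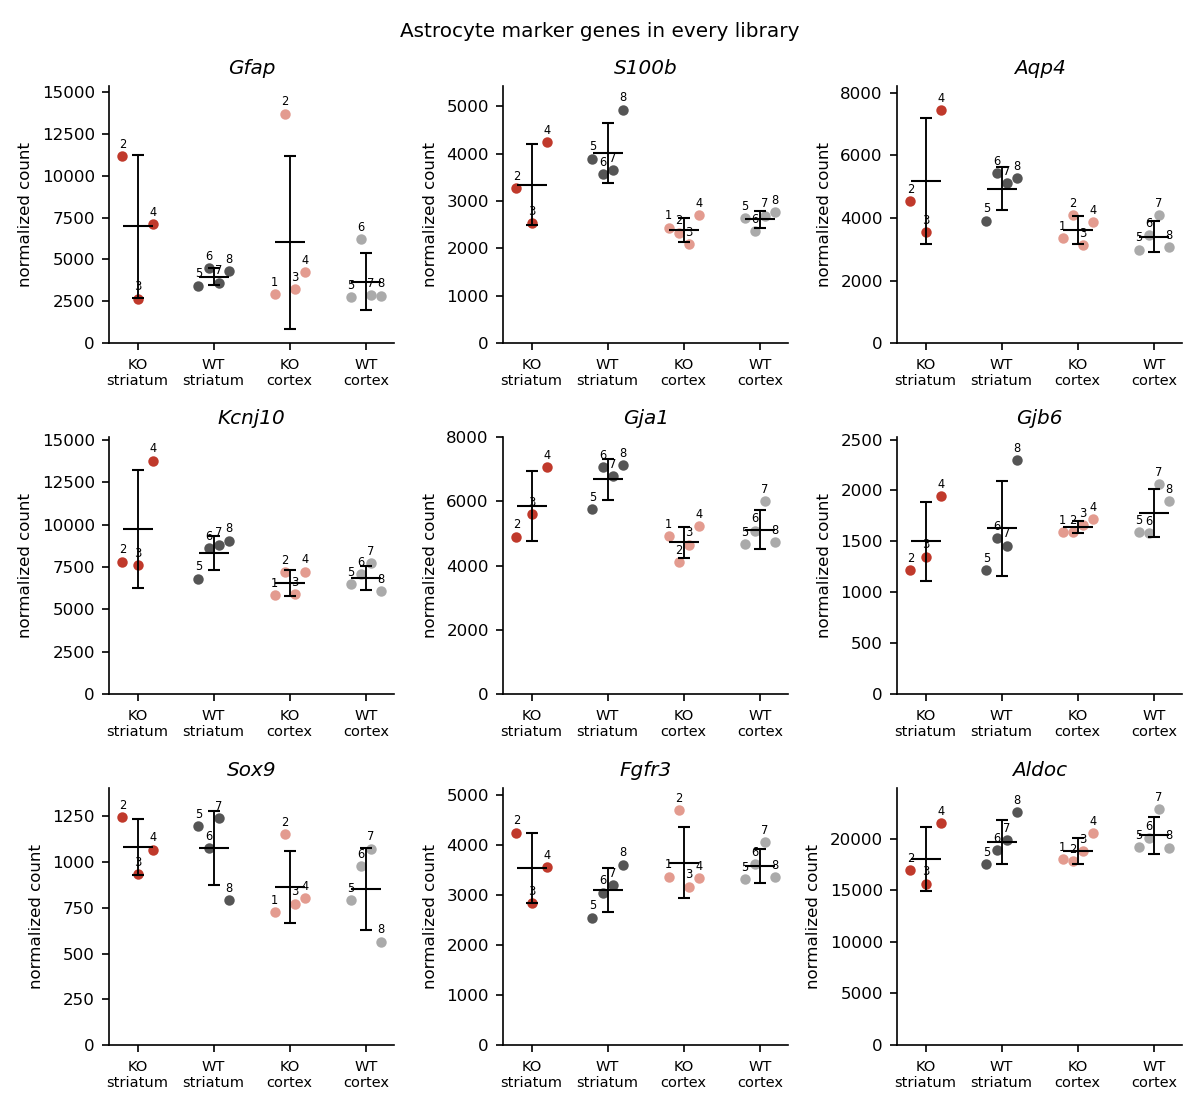
Normalized counts of each of the 9 markers in every library, with the replicate number above its point and bars for the mean and SD, for KO striatum, WT striatum, KO cortex and WT cortex. KO and WT overlap for every marker in both tissues. The points of Gfap, Fgfr3 and Sox9 in KO replicate 2 of both tissues lie above all others of their tissue. So do those of Kcnj10 and Aqp4 in KO striatum replicate 4.

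**Figure D3:**
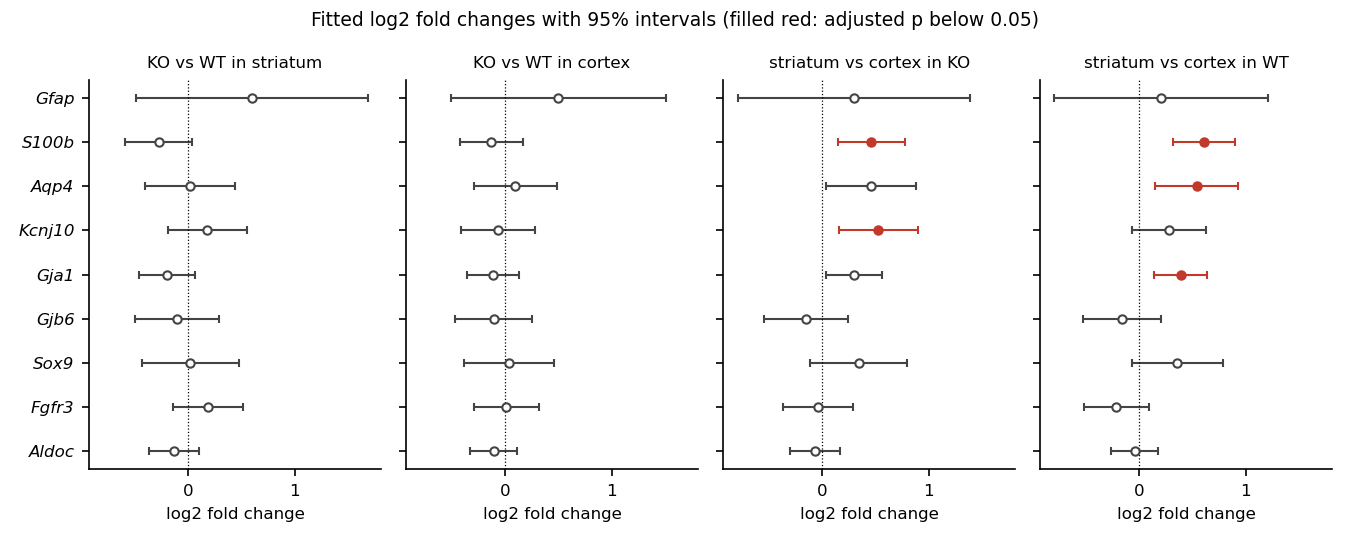
Log2 differences of the 9 markers with 95% intervals from limma in 4 panels, KO against WT in striatum and in cortex, then striatum against cortex in KO and in WT, with called genes in red. No interval of a KO against WT difference excludes 0, and S100b is called between the tissues in both genotypes.

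Gfap varied between libraries more than any other marker. It had 11192, 2653 and 7100.4 normalized counts in KO striatum replicates 2 to 4, and 3428, 4485, 3617 and 4293 in WT striatum replicates 5 to 8. KO cortex replicates 1 to 4 had 2923, 13719.7, 3231 and 4229, and WT cortex replicates 5 to 8 had 2741, 6214, 2848 and 2828. The highest library thus stood 5.17-fold above the lowest, whereas for Aldoc the same ratio was 1.46. Within the groups the coefficient of variation was 61.2% in KO striatum, 12.95% in WT striatum, 85.6% in KO cortex and 46.6% in WT cortex. KO was higher than WT by 0.60 on the log2 scale in striatum (SE 0.51, limma adjusted p = 0.601) and by 0.50 in cortex (SE 0.47, limma adjusted p = 1.0), less than the spread between libraries. The striatum difference was 0.14 without KO striatum replicate 2 and 1.18 without KO striatum replicate 3. With single libraries left out, the cortex difference lay between -0.0019, without KO cortex replicate 2, and 0.79. WT cortex replicate 6, at 6214, also lay far above the other WT cortex libraries. Single libraries thus set the size of the cortex difference.

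The 2 libraries numbered KO 2, of cortex and of striatum, were the highest of their tissues in Gfap. They were also the highest in Fgfr3 (4697 and 4246 normalized counts) and Sox9 (1152 and 1245). In striatum the Sox9 value lay close to the 1241 of WT striatum replicate 7. In Gja1 they were the lowest of their tissues (4101 and 4903). The labels do not say that they came from the same mouse. Their other transcripts were described with 24 tested genes of reactive astrocytes (of 26 listed), a list chosen with these data known. KO cortex replicate 2 was higher than each of the other 7 cortex libraries for 19 of the 24 genes (79.2%), where the same held for 16.5% of all genes tested. KO striatum replicate 2 was higher than each of the other 6 striatum libraries for 12 of the 24 (50%), where the same held for 13.2% of all genes. Both held for 11 of the 24 (45.8%), against 4.08% of all genes. The libraries were chosen for their Gfap values, so these shares are a description of 2 libraries and not of the knockout.

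Among those 11 genes, Serpina3n, a protease inhibitor that reactive astrocytes secrete, had 1268 normalized counts in KO cortex replicate 2, against 266 to 540 in the other KO cortex libraries and 220 to 396 in WT cortex. In striatum it had 801 in KO replicate 2, 457 and 511 in the other KO libraries and 194 to 367 in WT. Vim, the intermediate filament vimentin, had 1827 in KO cortex replicate 2, 775 to 788 in the other KO cortex libraries and 854 to 926 in WT cortex. Cd44, a hyaluronan receptor, had 309 in KO cortex replicate 2, with 61.6 to 97.5 in the other KO cortex libraries and 55.8 to 71.6 in WT cortex. In striatum Cd44 had 309.8 in KO replicate 2, 102 and 175 in the other KO libraries and 98.7 to 147 in WT. The other genes of the 11 were Osmr (receptor of oncostatin M), Timp1 (inhibitor of metalloproteases), C4b (complement), Stat3, Socs3, S1pr3, S100a10 and Aspg. Stat3, which carries cytokine signals to the nucleus, had 1815 in both KO 2 libraries, against 1183 to 1322 in the other KO cortex libraries and 1492 and 1566 in the other KO striatum libraries.

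Read gene by gene between KO and WT, 0 of the 24 reactive genes were called by limma in striatum and 0 in cortex. At an unadjusted p below 0.05 there were 7 in striatum and 3 in cortex, where 15.3% and 2.51% of all genes were below it. In striatum 18 of the 24 differences lay above 0, and in cortex 20. Of all 17030 genes tested, 8799 and 8599 did. The list as a set was not tested. By edgeR 0 were called in each tissue. DESeq2 called 1 in striatum (Lcn2) and 0 in cortex, where it called 2.13% and 0.0177% of all genes given an adjusted p. The median log2 difference of the list was 0.26 in striatum and 0.21 in cortex, where that of all genes tested in striatum was 0.01. The striatum median was 0.17 without KO striatum replicate 2, 0.16 without KO striatum replicate 4 and 0.45 without KO striatum replicate 3, and the cortex median was 0.054 without KO cortex replicate 2. Lcn2, the secreted lipocalin 2 of reactive astrocytes, had 47.1, 135 and 70.9 normalized counts in KO striatum and 1.14 to 9.14 in WT striatum, groups that do not overlap (limma adjusted p = 0.129). In cortex it had 10.6, 65.5, 138 and 36.4 in KO and 1.003 to 27.4 in WT, which overlap. Timp1 had 49.3, 3.13 and 9.53 in KO striatum and was listed at 0 in all 4 WT striatum libraries (limma adjusted p = 0.128). In cortex Timp1 had 5.28, 54.3, 8.95 and 4.67 in KO and 5.01 to 18.1 in WT. Without KO striatum replicate 4, limma called Timp1 and Socs3 of this list in striatum, where 3.05% of all genes tested were called. Osmr in cortex averaged 205 ± 137 in KO and 105 ± 6.54 in WT (limma adjusted p = 1.0).

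**Figure D4:**
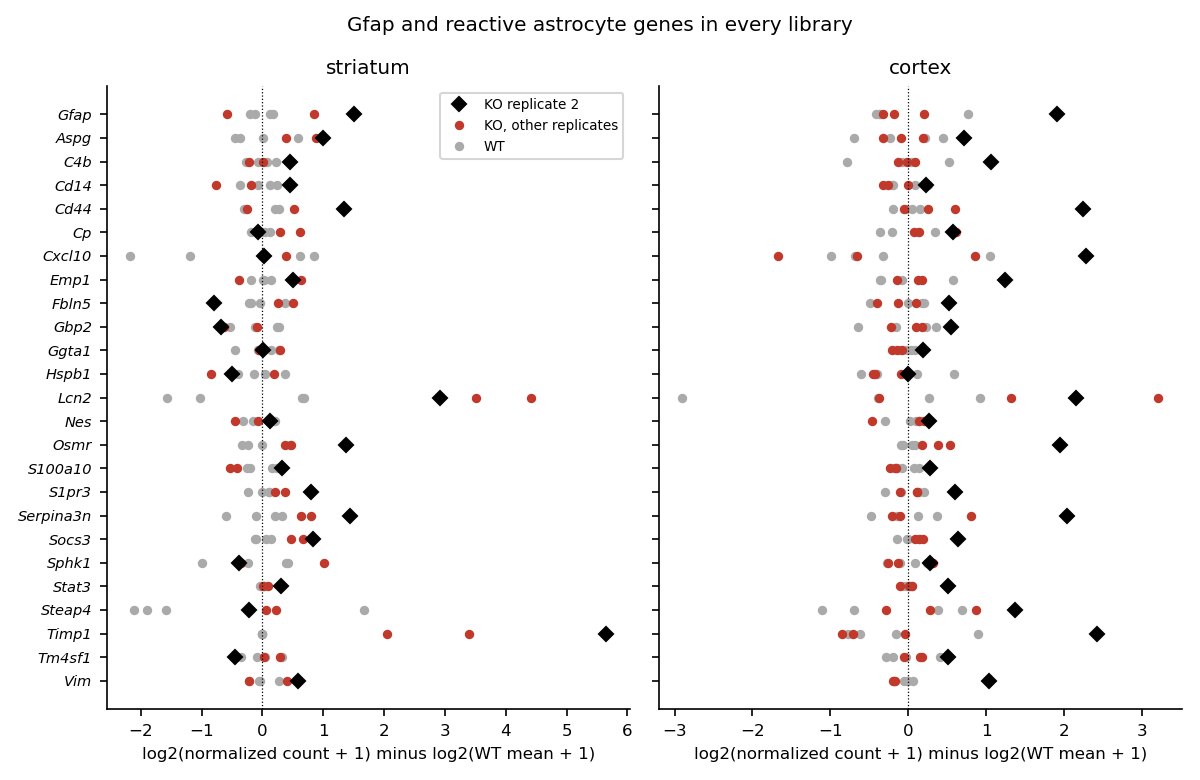
Gfap and the 24 tested reactive astrocyte genes in each striatum library (left) and each cortex library (right), as log2(normalized count + 1) minus the log2 of the WT mean plus 1 of that tissue. The diamonds of KO replicate 2 lie farthest right for Gfap in both tissues, for 12 of the 24 listed genes in striatum and for 19 in cortex.

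KO striatum replicate 4 had the highest Kcnj10, Aqp4, S100b, Gja1, Gjb6 and Aldoc values of its group. Its Kcnj10 value was 13791, against 7817 and 7621 in the other KO striatum libraries and 6824 to 9059 in WT striatum. Its Aqp4 value of 7457 was also the highest of the series. The sum of the 4 channel genes was 30249.9 there, against 18469 and 18130 in the other KO striatum libraries. This is also the library rich in choroid plexus, thalamic, septal and pallidal transcripts. Its sum over 20 genes of myelin and oligodendrocytes, 345483, was the highest of the series, with 167700 to 333102 in the other striatum libraries. Its sum over 30 genes of striatal projection neurons, 154954, was the lowest in striatum, where the others had 260525 to 525610. WT striatum replicate 5 had a higher choroid plexus sum, 236330 against 162437 in KO striatum replicate 4. Its Aqp4 (3915), Kcnj10 (6824), Gja1 (5766) and Gjb6 (1216) values were the lowest of WT striatum. The part of these tissues and cells in the marker values was not tested.

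The comparison of striatum with cortex asks how astrocyte transcripts differ between the regions. In KO mice limma called 2 of 9 markers, both higher in striatum, where 37.9% of all genes tested were called and 18.4% were called higher. S100b was higher by 0.46 on the log2 scale (SE 0.15, limma adjusted p = 0.024), with the values for KO striatum and KO cortex given above. Kcnj10 had 7817, 7621 and 13791 normalized counts in KO striatum and 5842, 7187, 5906 and 7236 in KO cortex, and was higher by 0.53 (SE 0.17, limma adjusted p = 0.028). Its groups did not overlap, as was the case for 41.5% of all genes. Without KO striatum replicate 4 neither was called: S100b was then higher by 0.27 (adjusted p = 0.135) and Kcnj10 by 0.25 (adjusted p = 0.148). S100b was also lost without KO cortex replicate 3 (adjusted p = 0.070) or KO striatum replicate 2 (adjusted p = 0.053), and Kcnj10 without KO cortex replicate 1 (adjusted p = 0.073) or KO cortex replicate 3 (adjusted p = 0.071). Aqp4 and Gja1 differed by 0.46 (SE 0.20, limma adjusted p = 0.083) and 0.30 (SE 0.12, adjusted p = 0.072). Aqp4 was called without KO striatum replicate 3 (0.69, adjusted p = 0.012) and Gja1 without KO striatum replicate 2 (0.42, adjusted p = 0.021).

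In WT mice limma called 3 of 9 markers, all higher in striatum, where 50.5% of all genes tested were called and 24.9% were called higher. S100b had 3892, 3561, 3645 and 4929 normalized counts in WT striatum and 2639.6, 2359, 2689 and 2763 in WT cortex. Every striatum library lay above every cortex library, as for 47.3% of all genes in one direction or the other, and the difference was 0.61 (SE 0.14, limma adjusted p = 0.0020). Gja1 had 5766, 7072, 6783 and 7127 in WT striatum and 4675, 5083, 5998 and 4728 in WT cortex. It overlapped in 1 pair of libraries and was higher by 0.39 (SE 0.12, limma adjusted p = 0.012). Aqp4 had 3915, 5432, 5107 and 5278 in WT striatum and 2992, 3449.6, 4080.4 and 3066 in WT cortex. It also overlapped in 1 pair and was higher by 0.54 (SE 0.18, limma adjusted p = 0.024). The call of Aqp4 was lost without WT cortex replicate 5 or 8 or WT striatum replicate 6, 7 or 8, at adjusted p between 0.053 and 0.068. Kcnj10 differed by 0.28 (SE 0.16, limma adjusted p = 0.164) and was called without KO striatum replicate 4 (adjusted p = 0.032), which changes the shared variance and not the WT values.

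The remaining markers did not pass in either genotype. Sox9 differed by 0.34 in KO and 0.36 in WT (limma adjusted p = 0.230 and 0.148). Gjb6 had 1214 to 1943 normalized counts in KO striatum, 1216 to 2301 in WT striatum, 1588 to 1716 in KO cortex and 1577 to 2060 in WT cortex, and differed by -0.15 in KO and -0.16 in WT. Fgfr3 differed by -0.04 in KO and -0.22 in WT, and Aldoc by -0.07 and -0.04. Gfap differed by 0.30 in KO (SE 0.51) and 0.20 in WT (SE 0.47). The 9 markers had the same sign in both genotypes, which share no library in these comparisons, in 9 of 9 cases, where 86.5% of all genes tested did. The median difference of the markers was 0.30 in KO and 0.28 in WT, and that of all genes tested was 0.0024 in KO and 0.0058 in WT.

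Other cell types differed between the tissues along with these markers. S100b and Kcnj10 are also expressed by oligodendrocytes, and Aqp4, S100b and Sox9 by ependymal cells, which line the ventricles beside the striatum. Of all genes tested, 18.4% were called higher in striatum in KO and 24.9% in WT. All 20 of 20 genes of myelin and oligodendrocytes were called higher in each genotype. Their summed value ran between 167700 and 345483 in KO striatum, 243457 and 333102 in WT striatum, 89916 and 105232 in KO cortex, and 63997 and 134542 in WT cortex. Of 18 tested ependymal genes 14 were higher in KO and 15 in WT, and the sum ran between 1756 and 3585 in KO striatum, 1172 and 2676 in WT striatum, 1034 and 1339 in KO cortex, and 581 and 1063 in WT cortex. None of the myelin genes and 1 of the ependymal genes was listed at 0 in some library. The part of these cells in the marker differences was not tested. Leaving out both libraries rich in choroid plexus transcripts, 0 of 9 markers were called in KO and 4 of 9 in WT (S100b, Gja1, Aqp4 and Kcnj10). Of all genes tested, 37.4% were then called in KO and 52.8% in WT.

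The other astrocyte genes were described with 58 genes in 5 lists, all of them tested. Between striatum and cortex they differed in both directions: in KO 15 were called higher and 8 lower, and in WT 18 higher and 8 lower. The share called was 39.7% in KO and 44.8% in WT, against 37.9% and 50.5% of all genes. In both genotypes 21 genes were called, 14 higher and 7 lower, with no gene in opposite directions. Without KO striatum replicate 4 the KO counts were 10 higher and 6 lower.

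Among secreted and surface proteins, 6 of 17 were higher and 3 lower in each genotype. Agt, the angiotensinogen of astrocytes, averaged 2182 ± 426 in KO striatum and 164 ± 33.2 in KO cortex, and 1943 ± 722 in WT striatum and 176 ± 34.5 in WT cortex, a log2 difference of 3.73 in KO (SE 0.26, limma adjusted p = 1.2e-07) and 3.404 in WT (SE 0.24, limma adjusted p = 5.1e-08). Chrdl1, which drives the maturation of synapses, went the other way, by -2.06 in KO (SE 0.31) and -1.70 in WT (SE 0.28). Il33, an alarmin cytokine, was higher by 0.92 in KO and 1.21 in WT, Itih3 by 1.75 in KO and Cst3 (cystatin C) by 0.38 in WT. Genes given in 1 genotype only were named by their p there, which does not limit their difference to it. Itih3 averaged 1438 in WT striatum and 644 in WT cortex, and Cst3 20647 in KO striatum and 17430 in KO cortex. Of the 58 genes, 54 had the same sign in both genotypes, where 86.5% of all genes tested did. Of 11 genes of transmitter uptake and amino acid metabolism, 3 were higher and 1 lower in KO and 2 were higher in WT. Slc6a11, the GABA transporter GAT-3, averaged 10523 ± 3614 in KO striatum and 3617 ± 263 in KO cortex, and 9147 ± 2907 in WT striatum and 3979 ± 411 in WT cortex. Phgdh, the first enzyme of serine synthesis, was higher by 0.54 in KO (SE 0.12, limma adjusted p = 0.0028) and 0.69 in WT (SE 0.11, limma adjusted p = 1.4e-04). Slc1a2, the glutamate transporter GLT-1, was lower by -0.43 in KO (SE 0.13, limma adjusted p = 0.020), and Slc7a10, the transporter Asc-1, was higher by 0.38.

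Of 10 channels, pumps and end-foot proteins, 3 were higher in KO and 4 in WT, with none lower. Slc4a4, a sodium bicarbonate cotransporter, was higher by 0.93 in KO and 1.02 in WT. The adhesion protein gene Hepacam was higher by 0.44 in each genotype, and its partner Mlc1 by 0.31 in KO and 0.24 in WT. Dag1, the dystroglycan that anchors end feet, was higher by 0.19 in WT. Of 10 metabolic genes, 1 was higher and 2 lower in KO, and 2 were higher and 3 lower in WT. Ndrg2 was higher by 0.49 in KO and 0.51 in WT and Gpt2 by 0.32 in WT, whereas Dio2, which activates thyroid hormone, was lower by -1.14 in KO and -0.99 in WT. Aldh1l1, the folate enzyme widely used as an astrocyte marker, was lower by -0.30 in KO, and Slc25a18, a mitochondrial glutamate carrier, by -0.82 in WT. In the other genotype Aldh1l1 averaged 1612 in WT striatum and 1917 in WT cortex, and Slc25a18 1047 in KO striatum and 1281 in KO cortex. Of 10 transcription regulators, 2 were higher and 2 lower in KO, and 4 higher and 2 lower in WT. Id4 was higher by 1.40 in KO and 1.73 in WT, Sox2 by 0.49 in KO and Id3 by 0.53 in WT. In the other genotype Sox2 averaged 1201 in WT striatum and 944 in WT cortex, and Id3 490 in KO striatum and 424 in KO cortex. Lhx2 was lower by -1.51 in KO and -1.47 in WT, and Nfib by -0.81 in KO and -0.90 in WT. Lhx2 and Nfib are expressed by cortical neurons too. Of the 24 reactive genes, 2 were higher and 4 lower in KO and 4 higher and 5 lower in WT. Fbln5 was higher by 1.59 in KO and 1.63 in WT and C4b by 1.37 and 1.60, whereas Sphk1 was lower by -1.85 and -1.99 and Socs3 by -0.76 and -1.14. Without KO cortex replicate 2 the KO count was 8 higher and 2 lower.

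**Figure D5:**
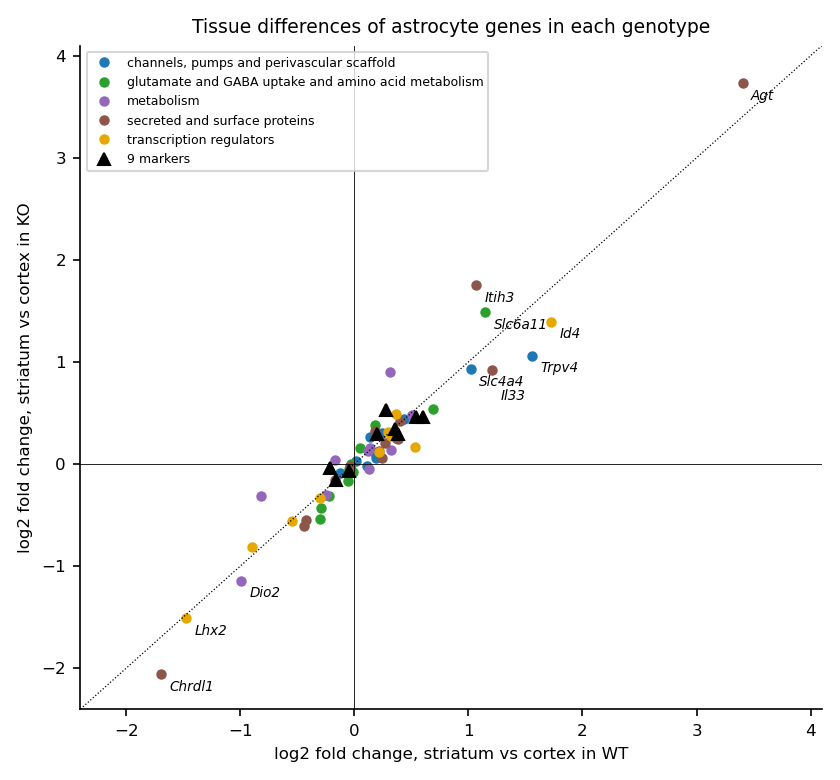
Log2 difference between striatum and cortex in WT (x axis) and in KO (y axis) for the 9 markers (triangles) and the 58 other astrocyte genes. The dotted line marks equal values. The 9 markers lie on the same side of 0 in both genotypes and close to the line, between -0.22 and 0.61, inside the range that runs from Chrdl1 to Agt.

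Between KO and WT, limma called 0 of the 58 other astrocyte genes in each tissue, with 10 in striatum and 2 in cortex at an unadjusted p below 0.05 (15.3% and 2.51% of all genes tested). By edgeR 0 were called in each tissue. By DESeq2 2 were called in striatum (Id4 and Cst3, both lower in KO) and 0 in cortex. Of all genes given an adjusted p, DESeq2 called 2.13% in striatum and 0.0177% in cortex. Their median log2 difference was -0.09 in striatum and -0.08 in cortex, with 41 of 58 below 0 in striatum and 42 of 58 in cortex. The striatum median was -0.045 without KO striatum replicate 3, -0.059 without WT striatum replicate 8 and -0.17 without KO striatum replicate 4. The cortex median was -0.0064 without WT cortex replicate 7 and -0.051 without KO cortex replicate 2. Some marker lists of other cells also lay mostly to one side of 0 between KO and WT striatum, and others did not. All 30 genes of striatal projection neurons were below 0 (median -0.78). So were 19 of 20 genes of microglia (median -0.23) and 19 of 20 of myelin and oligodendrocytes (median -0.23). Of 25 genes of cortical excitatory neurons 18 were above 0 (median 0.90), and so were all 18 tested ependymal genes (median 0.49). Endothelial and pericyte genes split into 10 above and 10 below 0 (median -0.03). Genes of thalamus, septum and pallidum split into 6 above and 9 below (median -0.06). Of all genes tested, 8799 lay above 0 and 8229 below. Of these lists limma called 4 cortical neuron genes and no other gene, and the part of these cells in the astrocyte values was not tested. Id4 averaged 2773 ± 509 in KO striatum and 4209 ± 508 in WT striatum, groups that do not overlap (-0.61, SE 0.14, limma adjusted p = 0.128). Cst3 averaged 20647 ± 1270 in KO striatum and 25588 ± 1981 in WT striatum, also without overlap (-0.31, SE 0.08, limma adjusted p = 0.169). Phgdh averaged 1514 ± 331 in KO striatum and 1952 ± 131 in WT striatum (-0.39, SE 0.12, limma adjusted p = 0.189). Ttyh1, a chloride channel gene, averaged 13115 ± 204 in KO striatum and 15287 ± 493 in WT striatum (-0.22, SE 0.07, limma adjusted p = 0.199). The other genes with the smallest p of their lists in striatum were Gpt2 (-0.26), Apoe (-0.27), Aldh1l1 (-0.23), Glul (-0.22), Id3 (-0.50) and Dag1 (-0.08). In cortex they were Cst3 (-0.17), Apoe (-0.15), Phgdh (-0.23), Prodh (-0.15), Aldh1l1 (-0.17), Pygb (-0.13), Mlc1 (-0.15), Hepacam (-0.12), Id4 (-0.28) and Nfia (0.12). Without KO striatum replicate 4, limma called 3 of the 58 lower in KO striatum (Il33, Aldh1l1 and Phgdh), where 3.05% of all genes tested were called. Without WT striatum replicate 8 it called 1 (Id4), where 1.1% of all genes tested were called. The difference between the 2 knockout effects passed for 0 of the 58 and 0 of the 24 reactive genes with limma, edgeR and DESeq2, with 0 and 1 at an unadjusted limma p below 0.05, and the 1 was Timp1.

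The genes whose pattern over the 15 libraries was most like that of Gfap were taken from 13424 tested genes whose normalized counts averaged 50 or more. On log2 values the Pearson coefficient was 0.90 for Chga (chromogranin A), 0.85 for Cyb5r1 and 0.84 for Vim. After each group's mean was subtracted, it was 0.94 for 4833422C13Rik, 0.92 for Slc39a1 and 0.92 for Psmb2. For the mean of the 9 markers, each centred, it was 0.91 for Srxn1, 0.90 for Nfam1 and 0.89 for Tnfrsf12a, and after subtraction of group means 0.93 for Tmem141, 0.91 for Jun and 0.91 for Tmem229a. These coefficients are the largest of many, and the points of Gfap are dominated by the libraries numbered KO 2.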

How the data were processed

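Total RNA of whole tissue samples went into NEBNext Ultra libraries, per the labels' protocols. Per the submitters' processing notes, the tools were DESeq2 1.12.4, HTSeq 0.6.0, TopHat2 2.1.1, cutadapt 1.1 and FastQC 0.11.5, listed without their roles, and the build was GRCm38. The annotation release and the strand setting are not given in the sources used here. The authors deposited 1 table of normalized counts, a signal per gene and library in which read counts had been divided by 1 factor per library. Every value was a whole multiple of the library's step (100% within 0.001), so whole reads could be recovered.

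Under R 4.3.3, limma 3.58.1 was fitted to log2(normalized count + 1) with a variance trend and 1 mean per group over all 15 libraries (11 residual degrees of freedom), for genes that reached a normalized count of 10 in 3 or more libraries. There were 5 comparisons: KO with WT in striatum and in cortex, the difference of those effects, and striatum with cortex in KO and in WT. P-values were adjusted by the Benjamini-Hochberg method over 17030 genes, and a gene was called below 0.05. Fold changes on this scale understate the change of low genes. The 9 markers, the gene lists and the rules were chosen with earlier results of these data known. From each list up to 4 called genes with the smallest p were named, or, where none was called, the 2 with the smallest p, and the 11 reactive genes highest in both KO 2 libraries were named after their values were seen. Alternatives were pseudocounts of 0.5 and 5, no filter and a filter of 50, TMM and upper quartile scaling, single tissues or genotypes, sample weights, robust variances, edgeR 4.0.16 and DESeq2 1.42.0 on recovered reads, the replicate number as a block, each library left out, and pairs of libraries left out. The fit was also run on simulated counts, drawn independently for each library with changes in KO striatum only. Its outcome is not given here. Positions, lengths and overlaps came from GENCODE M21 and promoters from RefSeq. Figures were drawn with matplotlib 3.10.9 (Python 3.11.15).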

Additional observations from a re-analysis of the deposited data

Results flagged for a closer look

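In groups of 4 libraries, 138 sets of values of the markers and named genes were checked for a library far from the others, and 13 sets held one. Chance alone flags about 1 in 20 such sets. In 7 of the 13 the library was KO cortex replicate 2.

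Among the markers, Gfap was 13719.7 normalized counts in KO cortex replicate 2, against 2923 to 4229 in the other KO cortex libraries, and 6214 in WT cortex replicate 6, against 2741 to 2848 in the other WT cortex libraries. Fgfr3 was 4697 in KO cortex replicate 2, against 3164 to 3365. In the same library Timp1 was 54.3 (others 4.67 to 8.95), Osmr 409 (119 to 153), C4b 1223 (532 to 621), Itih3 1024 (624 to 637) and Socs3 129 (87.7 to 93.9).

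The other flagged values lay in other libraries. In WT striatum replicate 8 Gpt2 was 2505 (others 1943 to 2029) and Il33 was 4501 (3605 to 3720.3). Pygb was lowest in WT striatum replicate 5 at 5308 (6029.5 to 6107), Slc6a11 was lowest in KO cortex replicate 3 at 3226 (3706 to 3790.0), and Slc1a2 was highest in WT cortex replicate 7 at 126736 (99445 to 103317).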

How the results depend on the processing

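No marker was called between KO and WT, nor for the difference of the knockout effects, under any of the alternatives run. Between the tissues the count in KO (2 in the main analysis) was 0 with a single genotype, 0 without both libraries rich in choroid plexus transcripts, 1 without both libraries low in striatal neuron markers (KO striatum replicate 4 and WT striatum replicate 8), 1 without the KO 2 libraries (chosen after the data were seen) and 4 with DESeq2, and leaving out each library gave 0 to 3. Without those low in striatal markers, the 1 marker called in KO was Gjb6, lower in striatum (-0.36, limma adjusted p = 0.024). S100b (limma adjusted p = 0.066) and Kcnj10 (limma adjusted p = 0.138) were not called there. Of all genes, 32.3% were called between KO tissues with a single genotype and 37.4% without the choroid-rich libraries. The share was 36.2% without those low in striatal markers, 33.7% without the KO 2 libraries and 40.3% with DESeq2. It was 31.9% to 39.9% with each library left out. In WT (3) the count was 5 without both libraries low in striatal markers, where Gjb6 was lower and Sox9 higher in striatum. There 54.3% of all genes tested were called. The WT count was 2 to 4 with each library left out, where 44.6% to 54.5% of all genes were called. Over all genes, calls between KO and WT in striatum (13) were 22 with no filter, 20 with upper quartile scaling, 0 with striatum alone, 35 with sample weights, 320 with DESeq2, 344 without the choroid-rich libraries, 862 without those low in striatal markers, 187 without WT striatum replicate 8 and 517 without KO striatum replicate 4. In cortex (1) they were 2 with sample weights and 3 with DESeq2. For the difference of effects (1) they were 4, 15, 19, 26 and, with the replicate block, 0.

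The cause of the reversals was not tested, and each value that reversed was uncalled in the main analysis. With sample weights the log2 difference was -0.032 for Sox9 and -0.021 for Fgfr3 between KO and WT cortex, -0.21 for Aqp4 and -0.049 for Kcnj10 between KO and WT striatum, -0.20 for Gjb6 and 0.069 for Sox9 between the effects, and 0.092 for Fgfr3 between KO striatum and cortex. Without the choroid-rich libraries it was -0.39 for Aqp4 and -0.19 for Kcnj10 in striatum, -0.094 for Gfap, -0.13 for Kcnj10, -0.32 for Gjb6 and 0.045 for Sox9 between the effects, and 0.0093 for Aldoc between WT tissues. Without those low in striatal markers it was -0.25 for Aqp4, -0.058 for Kcnj10 and -0.12 for Sox9 in striatum and -0.014 for Gjb6 between the effects. Without the KO 2 libraries it was -0.0019 for Gfap, -0.11 for Sox9 and -0.12 for Fgfr3 in cortex, 0.034 for Gjb6 and -0.085 for Sox9 in striatum, and 0.044 for Aqp4 and 0.024 for Sox9 between the effects.

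With each library left out, values that reversed at least once ranged as follows. In cortex, KO minus WT lay between -0.0019 and 0.79 for Gfap, -0.15 and 0.16 for Sox9, and -0.12 and 0.070 for Fgfr3. In striatum it lay between -0.31 and 0.076 for Gjb6, -0.12 and 0.12 for Sox9, -0.28 and 0.25 for Aqp4, and -0.10 and 0.33 for Kcnj10. The difference of effects lay between -0.36 and 0.68 for Gfap, -0.19 and 0.19 for Gjb6, -0.16 and 0.17 for Sox9, -0.16 and 0.070 for Aldoc, -0.23 and 0.032 for Gja1, -0.33 and 0.039 for S100b, -0.38 and 0.16 for Aqp4, and -0.033 and 0.39 for Kcnj10. Striatum minus cortex lay between -0.18 and 0.11 for Fgfr3, -0.16 and 0.88 for Gfap, and -0.20 and 0.026 for Aldoc in KO, and between -0.11 and 0.014 for Aldoc in WT.

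Replicate numbers recur in cortex and striatum of a genotype, and deviations of same-numbered libraries correlated at 0.0037 to 0.14 over genes. The striatum libraries numbered 3 and 7 matched another cortex number best while the other 5 matched their own. That is a hint of pairing from the data and not from the design. The labels do not say that same-numbered libraries came from the same mouse, and the main fit did not pair them. With the replicate block (consensus correlation 0.11 for KO against WT, which share no number), 4 markers were called between tissues in WT, including Sox9. In KO 3 were called, including Gja1. Of all genes tested, 48.8% were called in WT and 31.5% in KO. The difference of effects was -0.14 for Gfap and -0.0079 for Gjb6 with the block. Both values were the same without KO cortex replicate 1, whose number no striatum library carries. Each marker had at least 563 reads in every library. Group size as a limit was not tested.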

Other observations

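The ratio of Gja1 to Gjb6, the 2 connexin genes of astrocyte gap junctions, was looked at after their values were seen and is given without a test. It averaged 3.94 ± 0.274 in KO striatum (3.63 to 4.15, n = 3), 4.28 ± 0.788 in WT striatum (3.10 to 4.74, n = 4), 2.88 ± 0.237 in KO cortex (2.57 to 3.09, n = 4) and 2.89 ± 0.300 in WT cortex (2.49 to 3.22, n = 4). The lowest WT striatum ratio belonged to replicate 8, which had the highest Gjb6 value of the series, 2301 normalized counts. In striatum that library alone fell within the range of the cortex libraries.

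The ratio of S100b to Aldoc was 0.184 ± 0.019 in KO striatum, 0.203 ± 0.020 in WT striatum, 0.127 ± 0.011 in KO cortex and 0.129 ± 0.014 in WT cortex, with no library of either tissue in the range of the other. It was also chosen after the values were seen.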
